A study of Mus musculus with 8 samples.

Results

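Genes around the receptor EDA2R and the kinase NIK were followed in cultured mouse muscle fibres exposed to cytokines of the interleukin 6 family. They were chosen by name, with earlier results of these data known. The rows taken were those whose Ensembl identifier carries the symbol Eda2r, Edar, Eda, Tnfrsf12a, Tnfrsf1a, Fas, Map3k14, Nfkb2, Relb or Traf3. This gave 10 of the 53647 genes counted. The fibres were primary myotubes, wild type (WT) in all groups, formed in 5% horse serum from myoblasts of limb muscle of pups aged 2 to 3 days. Recombinant OSM (oncostatin M), LIF (leukaemia inhibitory factor) or IL6 (interleukin 6) was added at 250 ng/ml for 48 h, a further group was labelled control, and RNA was taken 72 h after differentiation. Each of the 4 groups holds 2 libraries, and since nothing says that they came from separate animals or cultures, the p-values measure only the spread between these libraries, which may be technical. The study is about OSM in the muscle wasting of cancer, so the comparison asks what each cytokine did to the RNA of a receptor pathway that has itself been tied to that wasting.

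As background, EDA2R is a receptor of the tumour necrosis factor (TNF) family that binds the A2 form of ectodysplasin (the product of Eda), whereas EDAR binds the A1 form. The non-canonical NF-kB pathway is switched by the stability of NIK, the kinase encoded by Map3k14: at rest TRAF3 brings NIK to an E3 ligase complex that has it degraded, and when a receptor draws TRAF3 away, NIK builds up, IKK-alpha is activated, p100 (the product of Nfkb2) is processed to p52, and p52 enters the nucleus with RELB. The receptor FN14 (Tnfrsf12a) and its ligand TWEAK (Tnfsf12) use the same route and are known for a role in muscle atrophy, while TNFR1 (Tnfrsf1a) and FAS (Fas) are death-domain receptors for TNF and FAS ligand. Much of this pathway is controlled at the level of protein, which RNA counts do not show.

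Of the 10 genes, 9 had enough counts to test and Edar had none. With OSM, 3 of the 9 were higher (Tnfrsf1a, Nfkb2, Relb) and 1 was lower (Traf3), against 21.2% of all 15603 genes tested that passed the same threshold, an adjusted p under 0.05 (10.7% higher and 10.5% lower). With LIF, 2 of the 9 were higher (Tnfrsf1a, Nfkb2) and 0 lower, against 7.7% of all genes (4.18% higher and 3.52% lower). With IL6, 0 of the 9 passed, and so did 0.0% of all genes. The other contrasts called 1 of the 9 between OSM and LIF (8.02% of all genes), 3 between OSM and IL6 (15.6%) and 3 between LIF and IL6 (2.76%). Eda2r, Eda, Tnfrsf12a, Fas and Map3k14 passed in none of these 6 contrasts. The 3 cytokines are compared with the same 2 control libraries, so their values against control are not independent of each other. The median log2 change over the 9 was 0.030 with OSM and 0.038 with LIF, beside -0.0027 and -0.0078 over all genes tested.

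Depth was nearly even, at 29482077 to 30025471 counts in genes per library, and levels are given as CPM, counts per 1000000 of the scaled library size. Summed markers of myotubes (Myh3, Myh8, Acta1 and 6 others) summed to 22992 to 24099 CPM in control, 20010 to 22535 CPM with IL6, 21197 to 22489 CPM with LIF and 20398 to 20579 CPM with OSM, so every treated library lies below control. Marker sums of other cells differed between the groups as well. Those of undifferentiated myoblasts summed to 307 to 347 CPM in control and 290 to 301 CPM with IL6. With LIF the sum was 236 to 245 CPM and with OSM 127 to 135 CPM. Most of it came from the proliferation gene Mki67, whereas Pax7 and Myf5 in the same list were higher with OSM. Fibroblast markers, mostly Col1a1, summed to 182 to 320 CPM in control, 102 to 173 CPM with IL6 and 132 to 195 CPM with LIF. With OSM the sum was 86.6 to 103 CPM. Lum was at 0 and Thy1 at 0 or 1 count. Macrophage markers summed to 2.06 to 2.32 CPM in control, 2.77 to 2.98 CPM with IL6 and 2.75 to 2.76 CPM with LIF. With OSM the sum was 4.09 to 4.62 CPM, nearly all of it Cd68. Of the 6 macrophage markers, 5 had at most 10 counts in any library. Endothelial markers summed to 1.06 to 1.21 CPM in control, 1.12 to 1.25 CPM with IL6 and 1.27 to 1.48 CPM with LIF. With OSM their sum was 1.13 to 1.91 CPM. Of the skin epithelium markers Krt5 and Krt1 were at 0. Trp63 made up nearly the whole sum of the latter, which was 15.2 to 17.8 CPM in control, 13.1 to 13.9 CPM with IL6, 9.31 to 11.5 CPM with LIF and 12.4 to 12.8 CPM with OSM. The part of these shifts in the results was not tested, and in such bulk samples fewer cells of a type and less RNA per cell cannot be told apart.

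Corrected for exon length, Eda2r was the most abundant of the 10 in control myotubes, at 41.6 ± 2.64 CPM per kb (SD, n = 2). Tnfrsf12a followed at 24.5 ± 3.79 and Tnfrsf1a at 22.4 ± 0.26 CPM per kb, and the control libraries of these receptors overlap, so their order is not set. Nfkb2 came next at 7.31 ± 0.012 CPM per kb. Traf3 at 5.59 ± 0.143, Fas at 5.46 ± 1.29 and Relb at 4.57 ± 0.15 CPM per kb form a run in which neighbours overlap. Map3k14 stood at 2.09 ± 0.186 and Eda, the ligand gene, at 0.978 ± 0.189 CPM per kb, each apart from its neighbours in the order.

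**Figure D1:**
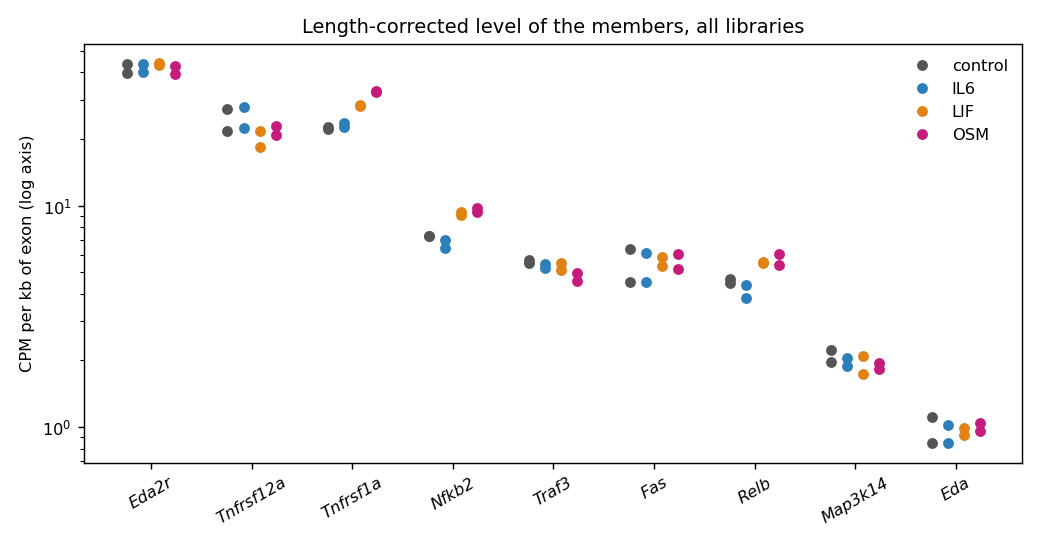
Level of the 9 testable genes in CPM per kb of exon (log axis), ordered by the control mean, with 1 point per library and colours for the 4 groups. Eda2r lies highest in control (41.6 CPM per kb) and Eda lowest (0.978 CPM per kb). Tnfrsf1a and Tnfrsf12a overlap in control, and Tnfrsf1a lies above Tnfrsf12a with LIF and with OSM.

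The promoters of 4 genes are printed. Nfkb2 and Tnfrsf1a were called higher with OSM and LIF, and Traf3 was called lower with OSM. Eda2r, the receptor the pathway is named for, passed no test. The Traf3 call lay just inside the threshold (adjusted p = 0.0483 with edgeR) and was lost with DESeq2 (0.0988). The limits of the LIF calls are given below. Each sequence is the 250 bases before the first RefSeq start site, 5′ to 3′ on the gene's strand, in build GRCm38.p6, which is not the build the reads were mapped to. Capitals mark matches on either strand to TTCNNNGAA, the spaced half-sites bound by STAT factors, and to the NF-kB consensus motif of 10 bases.
Nfkb2, chr19:46304487-46304736 (+): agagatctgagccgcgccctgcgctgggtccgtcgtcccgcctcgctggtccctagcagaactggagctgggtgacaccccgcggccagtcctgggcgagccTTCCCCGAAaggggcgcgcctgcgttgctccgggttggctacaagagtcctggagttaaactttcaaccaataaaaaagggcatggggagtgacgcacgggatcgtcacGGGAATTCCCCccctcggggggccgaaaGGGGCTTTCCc
Tnfrsf1a, chr6:125349473-125349722 (+): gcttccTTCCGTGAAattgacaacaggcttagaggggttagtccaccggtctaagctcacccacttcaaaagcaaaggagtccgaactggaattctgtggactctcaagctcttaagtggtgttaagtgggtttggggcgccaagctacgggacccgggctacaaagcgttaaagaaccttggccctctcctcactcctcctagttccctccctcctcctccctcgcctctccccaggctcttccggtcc
Traf3, chr12:111166120-111166369 (+): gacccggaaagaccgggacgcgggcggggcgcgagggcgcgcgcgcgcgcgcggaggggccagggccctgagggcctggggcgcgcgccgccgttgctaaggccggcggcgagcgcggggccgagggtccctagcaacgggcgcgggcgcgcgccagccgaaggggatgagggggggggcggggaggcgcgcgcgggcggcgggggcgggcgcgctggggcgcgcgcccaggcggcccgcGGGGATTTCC
Eda2r, chrX:97377210-97377459 (-): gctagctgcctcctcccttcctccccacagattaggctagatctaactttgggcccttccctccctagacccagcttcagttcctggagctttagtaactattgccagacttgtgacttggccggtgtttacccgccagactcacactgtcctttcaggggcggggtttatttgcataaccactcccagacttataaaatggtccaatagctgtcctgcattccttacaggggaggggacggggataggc

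In Nfkb2 the NF-kB motif matched 3 times, at bases -39 to -30 and, overlapping it, -38 to -29, and at -11 to -2 from the start, and the STAT motif matched at -148 to -140. From the second and the third Nfkb2 start sites, whose windows are not printed, the NF-kB motif matched at -236 to -227 and at -225 to -216. Tnfrsf1a held a STAT match at -244 to -236, and Traf3 an NF-kB match at -10 to -1. The Eda2r window held neither. Promoters of 9 of the 10 genes are in the RefSeq table used (Relb is named only), and Fas was the third with a STAT match, at -93 to -85. Over the same 250 bases, 4.46% of the 27025 genes in that table hold the NF-kB motif and 8.13% the STAT motif, both counted over all their start sites. A match is a run of letters and not evidence of binding.

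Eda2r RNA was high in every group and passed no test. It stood at 234 and 256 CPM in the control libraries, 236 and 257 with IL6, 253 and 259.8 with LIF and 231 and 251 with OSM. Every pair of groups overlaps except that both LIF libraries lie above both OSM libraries, a difference that did not pass either (log2 -0.090, adjusted p = 0.532). The fold against control was 0.985 with OSM (95% interval 0.888 to 1.09, adjusted p = 0.857), 1.05 with LIF (0.945 to 1.16, adjusted p = 0.661), and IL6 gave 1.01 (0.909 to 1.12, adjusted p = 0.995). The highest upper bound of these intervals is 1.16-fold, with LIF. With 6817 and 7621 counts in the control libraries, counting error is small beside the spread between libraries.

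Eda, the gene of the EDA2R ligand and of the EDAR ligand (spliced forms that a count per gene does not separate), was low throughout. Its libraries held 5.76 and 7.59 CPM in the control libraries, 5.76 and 6.98 with IL6, 6.26 and 6.73 with LIF and 6.53 and 7.11 with OSM, and every pair of groups overlaps. Against control the fold was 1.02 with OSM (interval 0.804 to 1.30), 0.972 with LIF (0.764 to 1.24) and 0.952 with IL6 (0.748 to 1.21), with adjusted p from 0.921 to 0.983. Edar, the receptor of the A1 form that is best known from hair and tooth development, had 0 counts in all 8 libraries, which allows up to 3 counts in each by counting error alone. Edaradd, the adaptor of EDAR, had 1 to 6 counts per library and was not tested.

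Tnfrsf12a, encoding FN14, passed no test in the fit of the 4 groups. Its libraries read 52.6 and 42.2 CPM in the control libraries, 53.8 and 43.2 with IL6, 41.8 and 35.4 with LIF and 44.3 and 40.1 with OSM. Replicate 2 lies below replicate 1 in each group. With a replicate block in the fit, Tnfrsf12a was called lower with LIF than in control and than with IL6, as given below. The LIF libraries lie below both control libraries and the OSM libraries overlap them. The log2 change was -0.29 with LIF (SE 0.13, adjusted p = 0.239, fold interval 0.666 to 0.998), -0.17 with OSM (adjusted p = 0.417, 0.729 to 1.09) and 0.035 with IL6 (adjusted p = 0.992, 0.840 to 1.25).

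Tnfsf12, the gene of its ligand TWEAK, was low but higher with OSM. It had 44 and 51 counts in control, 59 and 53 with IL6, 61 and 45 with LIF and 81 and 89 with OSM, so both OSM libraries lie above the other 6. The rise with OSM was 0.84 on the log2 scale (SE 0.22, adjusted p = 0.0166), and the adjusted p with LIF was 0.816. The OSM call is uncertain, as 48.3% of the gene's exon bases are shared with the read-through gene Tnfsfm13 on the same strand and the adjusted p was 0.0938 without control replicate 1, 0.0682 without OSM replicate 1, 0.104 without OSM replicate 2 and 0.0631 with DESeq2.

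Tnfrsf1a, encoding TNFR1, showed the largest rise with OSM among the 9 tested and also rose with LIF. It read 57.5 and 58.5 CPM in the control libraries, 58.7 and 61.2 with IL6, 73.6 and 73.0 with LIF and 84.5 and 85.1 with OSM. The IL6 libraries sit just above control, both LIF libraries above these, and both OSM libraries above LIF, with no overlap between any of the 4 groups. The rise with OSM was 1.46-fold (log2 0.55, SE 0.061, adjusted p = 2.60e-05) and with LIF 1.26-fold (log2 0.34, SE 0.061, adjusted p = 0.00458). With IL6 the fold was 1.03 (interval 0.943 to 1.13, adjusted p = 0.953). Tested directly, OSM lay above LIF by 0.21 (adjusted p = 0.0493) and above IL6 by 0.50 (adjusted p = 7.51e-05), and LIF above IL6 by 0.29 (adjusted p = 0.0247), all on the log2 scale.

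The call of Tnfrsf1a with OSM held in all 13 alternatives run. The LIF call was lost without LIF replicate 1 (adjusted p = 0.0648) or LIF replicate 2 (0.0653). The call of OSM over LIF, close to the threshold, was lost in 7 of 13: without LIF replicate 1 (0.301), LIF replicate 2 (0.276), OSM replicate 1 (0.244) or OSM replicate 2 (0.223), with another scaling (0.0506), with no filter on low counts (0.0775) and with DESeq2 (0.0833). That of LIF over IL6 was lost without IL6 replicate 1 (0.0734), LIF replicate 1 (0.244), LIF replicate 2 (0.225), OSM replicate 1 (0.0629) or OSM replicate 2 (0.062), and in a fit of the 2 groups alone (0.0595).

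Fas, encoding the death receptor FAS, spread more between the libraries of a group than between groups. Its values were 9.37 and 13.1 CPM in the control libraries, 9.36 and 12.6 with IL6, 11.0 and 12.1 with LIF and 10.7 and 12.5 with OSM. All groups overlap, with a fold of 1.03 with OSM (interval 0.792 to 1.34, adjusted p = 0.901), 1.03 with LIF (0.790 to 1.33, adjusted p = 0.941) and 0.975 with IL6 (0.749 to 1.27, adjusted p = 0.994). The ligand genes of both death receptors were all but absent from these cultures: Tnf had 1 count in 1 control library and Fasl 1 count in 1 OSM library.

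**Figure D2:**
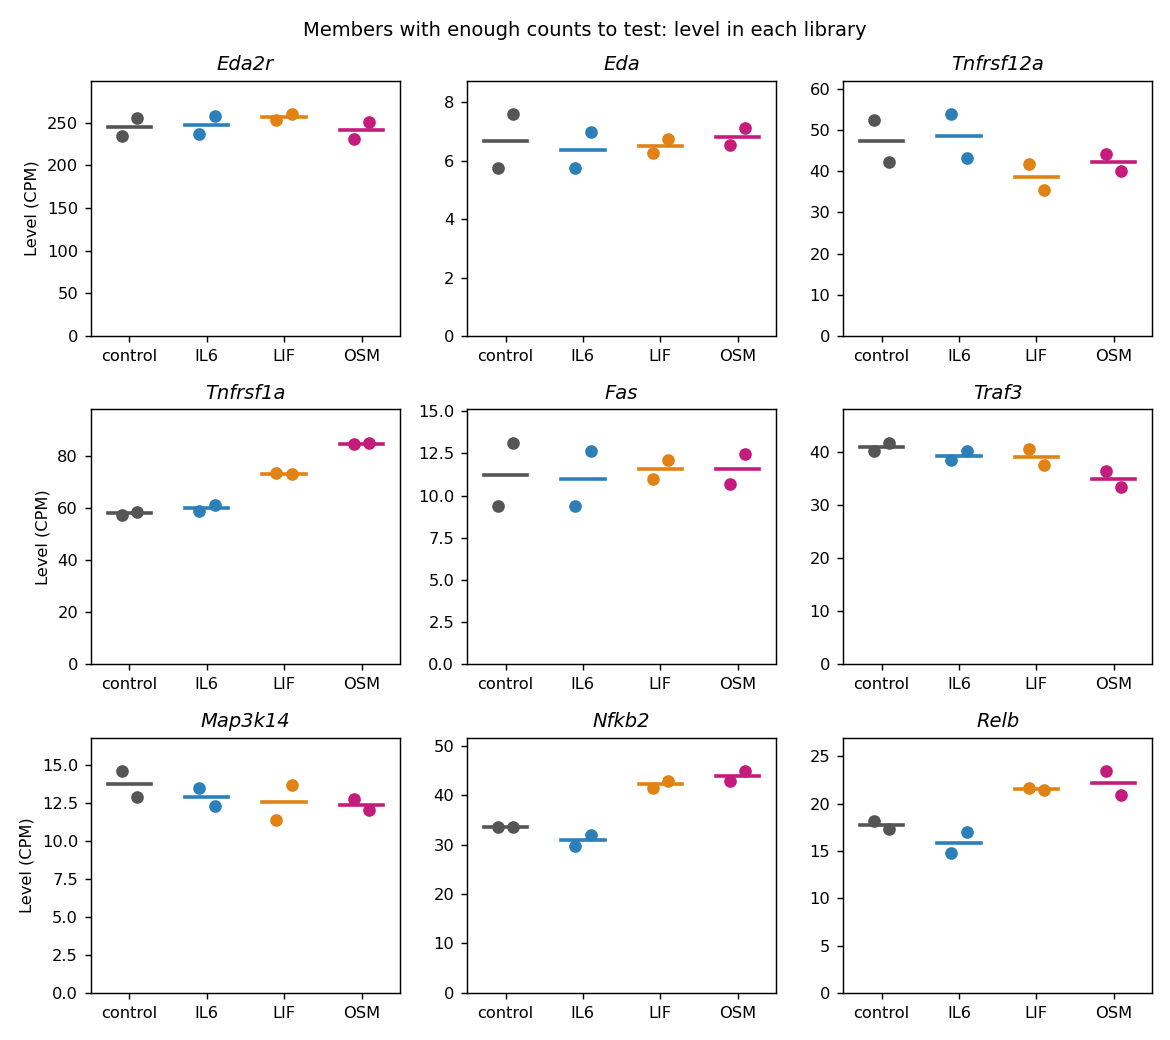
Level of each testable gene in CPM (vertical axes start at 0), with 1 point per library, a bar at the mean of the 2 libraries, and the 4 groups side by side. Tnfrsf1a climbs from control to LIF to OSM without overlap, Nfkb2 and Relb are higher with LIF and OSM than with control and IL6, and the points of Eda2r, Eda and Fas overlap those of control in each group.

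Traf3, encoding the adaptor that holds NIK in check, was slightly lower with OSM. It read 40.3 and 41.8 CPM in the control libraries, 38.6 and 40.2 with IL6, 40.6 and 37.6 with LIF and 36.5 and 33.5 with OSM, so both OSM libraries lie below the other 6. The log2 change was -0.23 with OSM (SE 0.077, adjusted p = 0.0483), -0.071 with LIF (adjusted p = 0.676), and IL6 gave -0.061 (adjusted p = 0.953). OSM against LIF did not pass (log2 -0.16, adjusted p = 0.265). The OSM call stands just inside the threshold and was lost in 10 of 13 alternatives: without control replicate 1 (0.0872), control replicate 2 (0.183), LIF replicate 1 (0.0793), LIF replicate 2 (0.0791), OSM replicate 1 (0.0947) or OSM replicate 2 (0.331), with another scaling (0.0507), no filter (0.0882), a fit of the 2 groups alone (0.0562) and DESeq2 (0.0988).

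Map3k14, encoding NIK itself, passed no test. It read 14.6 and 12.9 CPM in the control libraries, 13.5 and 12.3 with IL6, 11.4 and 13.7 with LIF and 12.7 and 12.0 with OSM. The OSM libraries lie just below control and the LIF and IL6 libraries overlap it, with a fold of 0.902 with OSM (interval 0.754 to 1.08, adjusted p = 0.420), 0.915 with LIF (0.766 to 1.09, adjusted p = 0.619) and 0.941 with IL6 (0.788 to 1.12, adjusted p = 0.953). The rest of the complex that degrades NIK did not pass with OSM or LIF either. Traf2, the adaptor that binds TRAF3, differed from control by -0.15 on the log2 scale with OSM (adjusted p = 0.175) and -0.041 with LIF (adjusted p = 0.824). Birc2, encoding the E3 ligase cIAP1, differed by 0.037 with OSM (adjusted p = 0.797) and -0.12 with LIF (adjusted p = 0.465). Birc3, encoding cIAP2, had 0 to 8 counts per library and was not tested.

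Nfkb2, encoding p100, rose with OSM and with LIF. It read 33.6 and 33.5 CPM in the control libraries, 29.7 and 32.0 with IL6, 41.5 and 42.8 with LIF and 42.9 and 44.8 with OSM. Every OSM and LIF library lies above every control library, and both IL6 libraries lie below control. The rise was 1.31-fold with OSM (log2 0.39, SE 0.072, adjusted p = 0.00186) and 1.26-fold with LIF (log2 0.33, SE 0.073, adjusted p = 0.0131). With IL6 the fold was 0.919 (interval 0.823 to 1.03, adjusted p = 0.936). OSM and LIF differed by 0.057 (log2, adjusted p = 0.730, fold interval 0.935 to 1.16), while OSM lay above IL6 by 0.51 (adjusted p = 3.08e-04) and LIF above IL6 by 0.45 (adjusted p = 0.00538).

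The Nfkb2 call with OSM held in all 13 alternatives. The call with LIF was lost without control replicate 1 (0.0515), LIF replicate 1 (0.0855) or LIF replicate 2 (0.162), and that of LIF over IL6 without LIF replicate 1 (0.0689) or LIF replicate 2 (0.103). As 18.1% of the exon bases of Nfkb2 overlap Psd and a long non-coding RNA on the opposite strand and the strand setting of the counting is not given in the sources used here, some of its reads could belong to these.

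Relb, encoding the partner of p52, followed Nfkb2 in its order of groups. It read 18.2 and 17.3 CPM in the control libraries, 14.8 and 17.0 with IL6, 21.7 and 21.5 with LIF and 23.4 and 20.9 with OSM. OSM and LIF libraries overlap each other and lie above all control and IL6 libraries. The rise with OSM was 1.25-fold (log2 0.32, SE 0.10, adjusted p = 0.0321). LIF gave 1.22-fold with an interval of 1.05 to 1.41 but an adjusted p of 0.107, and the difference between OSM and LIF was 0.038 (log2, adjusted p = 0.881), so the call with OSM alone does not show that the cytokines differ. IL6 gave 0.896-fold (interval 0.770 to 1.04, adjusted p = 0.936). OSM lay above IL6 by 0.48 (adjusted p = 0.00451) and LIF above IL6 by 0.44 (adjusted p = 0.0327).

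The Relb call with OSM was lost without control replicate 1 (0.0689), control replicate 2 (0.114), LIF replicate 1 (0.0589), LIF replicate 2 (0.0588) or OSM replicate 1 (0.254), and with DESeq2 (0.059). OSM over IL6 was lost without OSM replicate 1 (0.0784). LIF over IL6 was lost without IL6 replicate 1 (0.133), LIF replicate 1 (0.244), LIF replicate 2 (0.229), OSM replicate 1 (0.0586) or OSM replicate 2 (0.0575), and in a fit of the 2 groups alone (0.0556).

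The partners of these factors divided. Rela, encoding p65 of the canonical pathway, rose with OSM by 0.55 on the log2 scale (adjusted p = 1.97e-04) and with LIF by 0.37 (adjusted p = 0.0104), from 810 and 838 counts in control to 1086 and 1069 with LIF and 1224 and 1200 with OSM. The LIF call was lost without LIF replicate 1 (0.108) or LIF replicate 2 (0.0931). Nfkb1, encoding p105, had a log2 change of 0.17 with OSM (adjusted p = 0.139) and -0.092 with LIF (adjusted p = 0.563). Chuk, encoding IKK-alpha, the kinase downstream of NIK, had -0.0006 with OSM (adjusted p = 0.998) and 0.14 with LIF (adjusted p = 0.307).

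**Figure D3:**
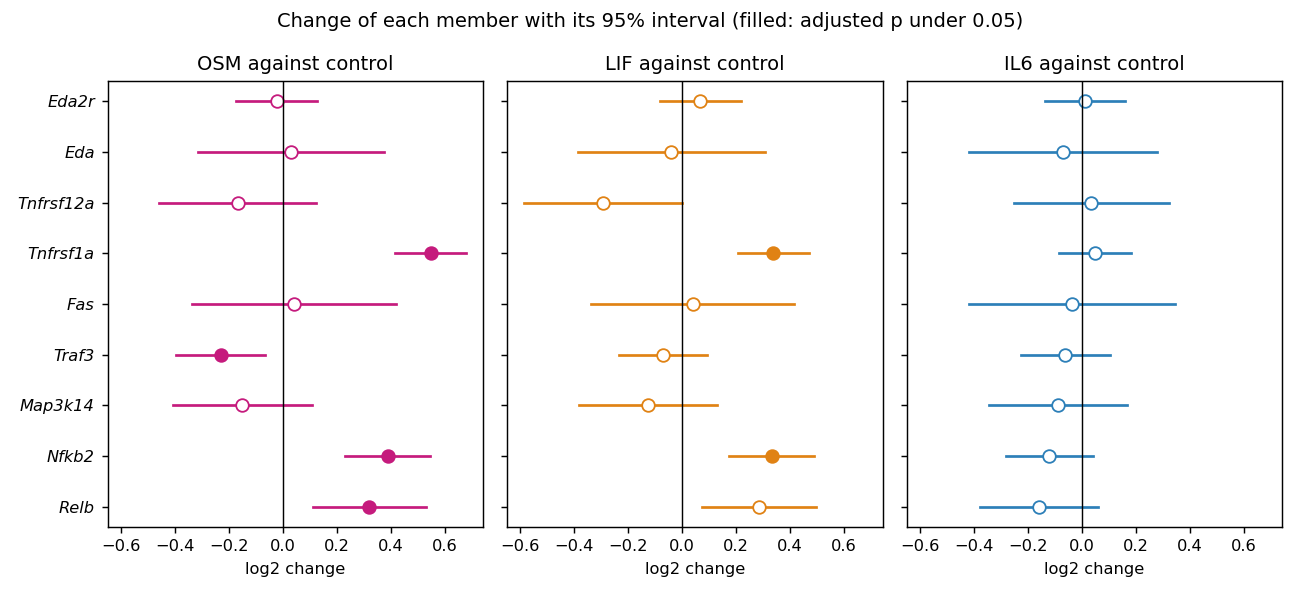
Log2 change of the 9 testable genes against control with its 95% interval (horizontal axis), for OSM, LIF and IL6, filled where the adjusted p is under 0.05. Tnfrsf1a and Nfkb2 are filled with OSM and LIF, Relb and Traf3 with OSM alone, and no gene with IL6.

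IL6 at the same dose changed none of the 9 beyond the threshold. The fold intervals of the 9 run from 0.748 at the lowest (Eda) to 1.27 at the highest (Fas), and the adjusted p values lie between 0.936 and 0.995. Over all genes edgeR called 0 with IL6, with 808 at an unadjusted p under 0.05, and DESeq2 called 19, none of them among the 9.

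Among 22 other TNF receptors, 17 could be tested, of which 6 were higher and 3 lower with OSM, beside 21.2% of all genes called (10.7% higher and 10.5% lower). The median log2 change of the 17 was -0.025, and that of all genes -0.0027. Tnfrsf9, encoding the co-stimulatory receptor 4-1BB, rose by 1.97 (log2, SE 0.22, adjusted p = 3.72e-05), from 3.10 ± 0.985 CPM to 12.2 ± 1.82 CPM (SD, n = 2). Tnfrsf11b, encoding the decoy receptor osteoprotegerin, rose by 1.58 (adjusted p = 5.22e-05), and Tnfrsf23, a decoy receptor for TRAIL, by 1.14 (adjusted p = 1.41e-06), to 240.4 ± 27.1 CPM. The other 3 that rose are named here after their values were seen: Tnfrsf21 by 0.59, Tnfrsf22 by 0.52 and Ltbr, the lymphotoxin beta receptor, by 0.33, with adjusted p from 0.000626 to 0.00609. Tnfrsf22 and Tnfrsf23 share 27.7% and 23.3% of their 50-base stretches with other genes, each other among them, so the split of reads between them is uncertain.

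The 3 that were lower with OSM, also named after their values were seen, were Tnfrsf10b (-0.26), Tnfrsf13c (-1.24) and Cd40 (-2.39), the last on 10 and 12 counts in control and 2 and 2 with OSM (fold interval 0.0758 to 0.479). Their calls were lost without control replicate 2, OSM replicate 1 or OSM replicate 2 (adjusted p 0.0754 to 0.343), Tnfrsf10b also without LIF replicate 1 (0.0815) or 2 (0.0816), with no filter (0.076), in a fit of the 2 groups alone (0.0563) and with DESeq2 (0.085), Tnfrsf13c also with DESeq2 (0.101), and that of Ltbr without OSM replicate 2 (0.0727). LIF raised 3 of the 17 and lowered 0, beside 7.7% of all genes called: Tnfrsf11b by 0.89 (adjusted p = 0.0176), Tnfrsf23 by 0.50 (adjusted p = 0.00432) and Ltbr by 0.27 (adjusted p = 0.0409). Tnfrsf23 lost it without LIF replicate 2 (0.0688), Tnfrsf11b without control replicate 1 (0.135), LIF replicate 1 (0.143) or LIF replicate 2 (0.0932), and Ltbr when any 1 control, LIF or OSM library was left out (0.0682 to 0.281), with no filter (0.0598) and with DESeq2 (0.07). Tested directly, OSM lay above LIF for Tnfrsf9 by 1.11 (adjusted p = 0.00328), Tnfrsf23 by 0.64 (adjusted p = 5.25e-04) and Tnfrsf11b by 0.68 (adjusted p = 0.0220). The call was lost for Tnfrsf9 without LIF replicate 1 (0.0621) or OSM replicate 2 (0.0535), and for Tnfrsf11b when any 1 LIF or OSM library was left out (0.119 to 0.178) or with DESeq2 (0.0517).

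TNF ligand genes were mostly at or near 0 counts: 13 of 17 had too few counts to test, each with at most 7 in any library, and of the 4 tested 2 were higher with OSM and 1 with LIF, beside 10.7% and 4.18% of all genes that were higher. Besides Tnfsf12 this was Tnfsf9, the ligand gene of 4-1BB, at 0.47 with OSM (adjusted p = 0.0117) and 0.44 with LIF (adjusted p = 0.0391). The OSM call of Tnfsf9 was lost without control replicate 1 (0.109), OSM replicate 1 (0.0854) or OSM replicate 2 (0.0699). Its LIF call was lost without control replicate 1 (0.248), LIF replicate 1 (0.0866), LIF replicate 2 (0.349), OSM replicate 1 (0.0804) or OSM replicate 2 (0.0793), and in a fit of the 2 groups alone (0.0717).

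Of 21 tested genes of receptor adaptors and death signalling, 3 were higher and 1 lower with OSM (median 0.021), a share near the 21.2% of all genes called. With LIF 0 of them passed, beside 7.7% of all genes, and with IL6 0. Ripk1, the kinase recruited to TNFR1, rose by 0.52 (SE 0.11, adjusted p = 0.00346), and Cflar, encoding the caspase-8 inhibitor c-FLIP, by 0.31 (adjusted p = 0.00605). Traf3ip2, the adaptor of interleukin 17 receptors, named after its value was seen, rose by 0.53 (adjusted p = 0.0395). Ripk3, the kinase of necroptosis, fell from 17 and 11 counts in control to 3 and 3 with OSM (log2 -2.18, SE 0.68, adjusted p = 0.0360), a fold with an interval of 0.0799 to 0.610 on these few counts. Ripk1 lost its call without OSM replicate 2 (0.053), Cflar without control replicate 1 (0.0575) or OSM replicate 1 (0.0561), Ripk3 without control replicate 1 (0.195), OSM replicate 1 (0.182), OSM replicate 2 (0.173) or with DESeq2 (0.0873), and Traf3ip2 when any 1 control, LIF or OSM library was left out (0.0583 to 0.17).

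Of 16 other NF-kB factors and kinases tested, 5 were higher and 0 lower with OSM (median 0.18), beside 10.7% of all genes higher and 10.5% lower. With LIF 3 were higher and 0 lower (median 0.12), beside 4.18% and 3.52% of all genes. After Rela, the rises with OSM were in Nfkbia, encoding the inhibitor IkB-alpha that NF-kB itself induces, by 0.67 (adjusted p = 2.45e-04), Bcl3, a nuclear IkB protein, by 0.47 (adjusted p = 0.00325), and, named after their values were seen, Tnip2 by 0.50 and Ikbkg, encoding NEMO, by 0.25. With LIF, Bcl3 rose by 0.65 (adjusted p = 0.00101) and Nfkbia by 0.37 (adjusted p = 0.0361). Without OSM replicate 2 the OSM calls of Bcl3 (0.052), Tnip2 (0.069) and Ikbkg (0.0701) were lost, and that of Ikbkg also without control replicate 1 (0.128) or OSM replicate 1 (0.15). The LIF call of Nfkbia was lost without control replicate 1 (0.0629), control replicate 2 (0.161), LIF replicate 2 (0.390), OSM replicate 1 (0.0669) or OSM replicate 2 (0.0654).

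Known NF-kB target genes rose and fell. Of 26 listed, 17 could be tested, and with OSM 7 were higher and 2 lower (median 0.33), beside 21.2% of all genes called. With LIF 3 were higher and 1 lower (median 0.16), beside 7.7% of all genes. Nos2, the inducible nitric oxide synthase, rose by 1.21 with OSM (SE 0.12, adjusted p = 4.17e-05), from 175 ± 13.9 CPM to 405 ± 38.0 CPM (SD, n = 2), and by 0.84 with LIF (adjusted p = 0.00200). The chemokine gene Cxcl10 rose by 1.71 with OSM (adjusted p = 8.07e-05), above LIF by 0.97 (adjusted p = 0.00642). Csf1, a macrophage growth factor, fell by 0.52 with OSM (adjusted p = 9.82e-05) and by 0.38 with LIF (adjusted p = 0.00369). Named after their values were seen, Cxcl1 (1.08), Mmp9 (1.03), Ccl7 (0.96), Ccl5 (0.85) and Tnfaip2 (0.26) were higher and Cxcl12 (-0.78) lower with OSM, and Mmp9 (0.56) and Cxcl1 (2.00-fold) higher with LIF.

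Several of these calls were lost when 1 library was left out or under other settings. With OSM, Tnfaip2 lost its call without OSM replicate 1 (0.0584), Ccl5 when any 1 control or OSM library was left out (0.0574 to 0.118) and with DESeq2 (0.0886), and Ccl7 without control replicate 1 or when any 1 LIF or OSM library was left out (0.0701 to 0.264), with no filter (0.0613), in a fit of the 2 groups alone (0.0539) and with DESeq2 (0.171). Cxcl10 was no longer called between OSM and LIF without LIF replicate 1 (0.115) or OSM replicate 2 (0.0792). With LIF, Csf1 lost its call without LIF replicate 2 (0.082), Cxcl1 without control replicate 2 (0.0655), LIF replicate 1 (0.0621), LIF replicate 2 (0.0992) or the filter (0.0525), and Mmp9 without control replicate 1 (0.25), LIF replicate 2 (0.456), OSM replicate 1 (0.0875), OSM replicate 2 (0.0863) or the filter (0.0548), and in a fit of the 2 groups alone (0.0751).

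Targets of p53, among which EDA2R and FAS are often counted, were called with OSM about as often as all genes. Of 21 tested, 1 was higher and 3 lower with OSM (median -0.091), beside 21.2% of all genes called, and 3 were higher and 1 lower with LIF (median 0.011), beside 7.7%. Btg2, an anti-proliferative gene, rose by 0.54 with OSM (adjusted p = 6.41e-05) and by 0.40 with LIF (adjusted p = 0.00279). Gdf15, encoding a stress hormone tied to appetite, fell by 1.22 with OSM (adjusted p = 5.43e-04), from 19.6 ± 0.589 CPM to 8.37 ± 0.354 CPM (SD, n = 2). Perp, a membrane protein gene of desmosomes, fell by 1.41 with OSM (adjusted p = 0.00319) and 1.48 with LIF (adjusted p = 0.00669). The skin epithelium markers, whose sum was nearly all Trp63, summed lower than control with OSM, LIF and IL6. With IL6 Perp was not called (log2 -0.48, adjusted p = 0.936), and the part of these markers was not tested. Named after their values were seen, Aen (-0.28) was lower with OSM and Pmaip1 (0.39) and Ei24 (0.28) higher with LIF. Aen lost its call without OSM replicate 1 (0.0643) or OSM replicate 2 (0.0525). With LIF the calls were lost for Btg2 without LIF replicate 2 (0.0718), Perp without LIF replicate 1 (0.0872) or 2 (0.0566), Pmaip1 without LIF replicate 1 (0.121), and Ei24 without control replicate 1 (0.124), LIF replicate 1 (0.0833) or 2 (0.237).

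**Figure D4:**
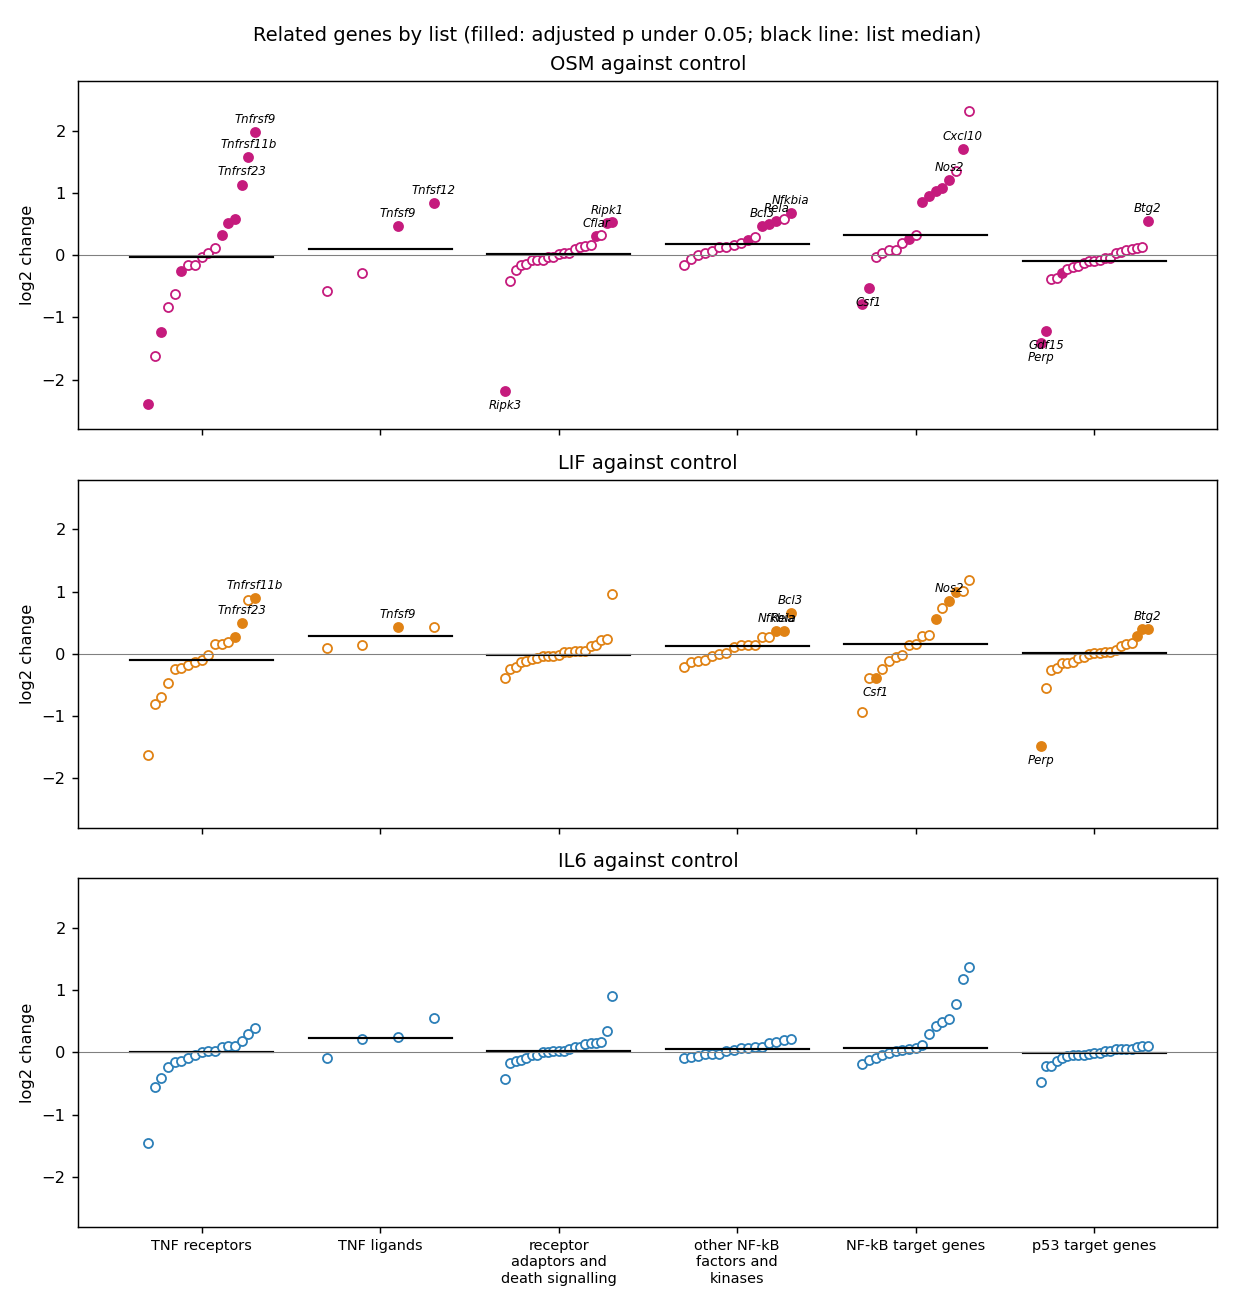
Log2 change against control (vertical axis) of each tested gene in the 6 related lists, for OSM, LIF and IL6, with 1 point per gene, filled where the adjusted p is under 0.05, and a black line at the list median. With OSM the median of the NF-kB target genes lies at 0.33 and that of the p53 target genes at -0.091, and no point is filled with IL6.

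The genes whose pattern over the 8 libraries was most like those of the 2 receptors were taken from 13255 protein-coding genes by Pearson's r of log2 CPM. For Eda2r they were Foxj3 (r = 0.983), Hoxc8 (0.973) and Ttbk2 (0.961), and for Tnfrsf12a Carmil1 (0.987), Slc1a1 (0.955) and Insig1 (0.955). These are descriptions over 8 points that share depth and replicate number, and Slc1a1 lies at only 0.167 to 0.463 CPM.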

How the data were processed

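The authors deposited unnormalised read counts for every gene, with 1 file to a library. Its 5 summary lines (11.7% to 12.7% of recorded alignments) entered no library size and no test. Per the submitters' processing notes, the tools named are FastQC 0.11.9, MultiQC 1.12, Trim Galore 0.6.5, STAR 2.7.3a, HTSeq 0.11.1 and DESeq2 1.34.0, with build GRCm39 (mm39). The strand setting and annotation release are not given in the sources used here. Libraries were made with a stranded mRNA kit, per the labels' protocols.

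Identifiers were given symbols through GENCODE M21 (52093 of 53647 matched), whose exon lengths, of GRCm38, set the levels per kb. Genes were filtered with edgeR 4.0.16 in R 4.3.3 (filterByExpr, minimum count 10, 15603 genes kept), scaled by TMM, and fitted with a robust quasi-likelihood model of the 4 groups over all 8 libraries (4 residual degrees of freedom). Adjusted p is the Benjamini-Hochberg value over all 15603 genes of a contrast, called under 0.05, and intervals are 95% intervals of the fit. The biological coefficient of variation was 6.42%. The chi-square per gene between replicates, 3.09 to 12.7 by group, exceeds counting error, so no library was counted as a repeat of another. Limits from counts cover counting error only, as PCR copies of a molecule are counted as separate reads. The fit was tested on simulated data.

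The 10 genes and the lists were chosen with earlier results of these data known. Named besides these are 10 pathway partners, up to 3 genes a list with OSM and 2 with LIF by lowest adjusted p, and the 3 genes most like Eda2r and Tnfrsf12a. Other called list genes are said to be named after their values were seen. Alternatives were another scaling (DESeq2's size factors, RLE), no low-count filter, a replicate block, fits of 2 groups, leaving out each library, and DESeq2 1.42.0.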

Additional observations from a re-analysis of the deposited data

How the results depend on the processing

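Over 1415 values of single genes under the alternatives, 1222 kept their direction and their side of the threshold, 152 lost a call, 2 gained one and 39 changed sign. DESeq2 gave no adjusted p for Cd40 with OSM or Eda with IL6, which are left out of these counts. With 2 libraries a group, an arm left with 1 library is assumed to vary like the other groups, and these fits test with fewer samples. Every sign change came from leaving out 1 library, in genes with no call, and the cause was not tested. The log2 ranges over the 8 such fits were, for OSM against control, Eda2r -0.086 to 0.052, Eda -0.15 to 0.25 and Fas -0.18 to 0.31; for LIF against control, Eda -0.22 to 0.18, Fas -0.18 to 0.31 and Tnfsf12 -0.10 to 0.35; for IL6 against control, Eda2r -0.053 to 0.079, Eda -0.25 to 0.14, Tnfrsf12a -0.13 to 0.20, Fas -0.27 to 0.23 and Map3k14 -0.17 to 0.0046. They were, for OSM against LIF, Fas -0.11 to 0.11, Map3k14 -0.15 to 0.12 and Relb -0.042 to 0.12; for OSM against IL6, Eda2r -0.088 to 0.031, Eda -0.026 to 0.25, Fas -0.12 to 0.31 and Map3k14 -0.12 to 0.013; and for LIF against IL6, Eda2r -0.0024 to 0.12, Eda -0.10 to 0.18, Fas -0.12 to 0.31, Map3k14 -0.18 to 0.087 and Traf3 -0.066 to 0.045.

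The number of the 9 genes called ran, over the fits without 1 library, from 2 to 4 with OSM, from 0 to 2 with LIF, from 0 to 1 for OSM against LIF, from 2 to 3 for OSM against IL6 and from 0 to 3 for LIF against IL6. It stayed at 0 with IL6 under all 13 alternatives. With DESeq2 it was 2 with OSM and 0 for OSM against LIF, which was also 0 with RLE scaling and without the low-count filter. In a fit of the 2 groups alone it was 1 for LIF against IL6. Over all genes, the calls without 1 library ran from 1613 to 4056 with OSM, 314 to 1659 with LIF, 0 to 182 with IL6, 440 to 1746 for OSM against LIF, 1111 to 2684 for OSM against IL6 and 79 to 724 for LIF against IL6. DESeq2 called 19 genes with IL6, and the 2-group fit 2904 for OSM against LIF.

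Whether the replicate numbers pair the libraries is not said in the labels and was not tested. The correlation of deviations between same-numbered libraries was low but positive in every pair of groups, at 0.007 to 0.181. It was over 0.1 in some pairs only. A replicate block in the fit gave 3965 calls with OSM and 1658 with LIF, beside 3305 and 1201 without it. With the replicate block 9 genes were called with IL6 and 832 for LIF against IL6, and Tnfrsf12a, whose replicate 2 reads below replicate 1 in each of the 4 groups, passed for LIF against control (adjusted p = 0.0124) and LIF against IL6 (0.0118). The 13 TNF ligand genes, Edar, Edaradd and Birc3, among other listed genes, had too few counts for a change to be tested.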

Other observations

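Some genes of the pathway differed between the libraries numbered 1 and 2 in the same direction in every group, larger for Fas than any cytokine difference it showed. Log2 CPM of replicate 2 minus replicate 1 for Fas was 0.48 in control, 0.43 with IL6, 0.14 with LIF and 0.22 with OSM. Eda2r (0.13, 0.12, 0.036 and 0.12 in the same order) and Eda (0.39, 0.28, 0.10 and 0.12) were also higher in replicate 2 throughout, and Tnfrsf12a (-0.32, -0.32, -0.24 and -0.14) was lower. That makes 3 of the 9 tested genes higher and 1 lower in all 4 groups, beside 9.68% of all genes in each direction. Higher throughout were also 4 of 17 other TNF receptors and 4 of 21 p53 targets, the latter being Trp53inp1 (0.59, 0.43, 0.19 and 0.24), Ccng1 (0.45, 0.23, 0.16 and 0.10), Zmat3 (0.21, 0.39, 0.057 and 0.10) and Perp (0.24, 0.64, 0.30 and 0.074). Another 3 p53 targets, Sesn2, Plk3 and Tigar, were lower throughout, and 0 of the other TNF receptors. Of 21 adaptor and death signalling genes 2 were higher and 3 lower throughout. Of 16 other NF-kB factors and kinases 2 were higher and 3 lower. Of 17 NF-kB targets 2 were higher and 0 lower, and of 4 TNF ligands 0 were either. The labels do not say what a replicate number shares, the genes named here were picked out after their values were seen, and no test was made.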
